A study of Mus musculus with 8 samples.

Results

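Migratory dendritic cells (DCs) of the mouse kidney are described here, as 485 single cells among the 90855 that passed limits on quality, out of 120281 barcodes in the series. A cell was selected when its counts of *Ccr7*, *Fscn1*, *Ccl22* and *Il4i1* summed to at least 4, with at least 2 of these genes detected. It also had at most 2 counts of *C1qa*, *C1qb* and *C1qc* (macrophages), and at most 1 count each of *Cd3e*, *Cd3g* and *Themis* together (T cells), of *Pax5* and *Ms4a1* together (B cells) and of *Flt1* and *Slc12a1* together (endothelium and tubule). The limits asked for more than 300 genes, fewer than 20000 counts and less than 25% mitochondrial counts per cell. The cells were therefore chosen on their own counts, so the levels of the 4 genes, and the profile of the chosen cells against other cells, are descriptions without a test.

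The question of the study was what inhibition of the kinase SYK by entospletinib does to kidneys after ischemia-reperfusion injury (IRI). Male C57BL/6 mice received entospletinib (20 mg/kg, intraperitoneal) or vehicle (DMSO) before IRI of the left kidney, and kidneys were taken at days 1, 7 and 14 after IRI. The day 1 mice received this injection alone, whereas entospletinib was continued in the mice of the later days. Kidneys of uninjured mice served as control. Cells of 3 mice were pooled for each of the 7 conditions, depleted of dead cells, enriched for leukocytes by light scatter in fluorescence-activated cell sorting, and barcoded together. Each condition is 1 pool, the deposited table names the vehicle pools only as IRI with their day, and all pools were spread over the same 8 sublibraries, which are technical portions of the same cells. Differences between single pools therefore carry no p-value. Where an interval is given it covers counting error, and where an SD over sublibraries is given it is technical.

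Conventional DCs take up antigen in tissues and fall into type 1 (cDC1, marked by *Xcr1* and *Clec9a*) and type 2 (cDC2, marked by *Cd209a* and *Clec10a*). On maturation, cells of either type raise the chemokine receptor CCR7, which guides them along CCL19 and CCL21 through lymphatic vessels to the draining lymph node, where they present antigen to T cells. Fascin, the actin-bundling protein made from *Fscn1*, forms the long protrusions of such cells. CCL22 attracts T cells that carry CCR4, and IL4I1, an amino acid oxidase, restrains T cell activation. Maturation also runs with NF-kB signalling, costimulatory ligands and a fall in antigen uptake. SYK sits below Fc receptors and C-type lectin receptors in DCs and links them to the adaptor CARD9 and to NF-kB.

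Cells past the limits numbered 6110 to 22489 per pool and their median depth ran from 933 counts with entospletinib at day 14 to 2928 counts in control. The migratory DCs had a median of 3927 counts and 1474 genes, and 1685 counts with entospletinib at day 14 against 3024 to 5127 in the other pools. Searched among the 485 alone, no 2 barcodes shared the same 3 wells across sublibraries, and searched among all 120281 barcodes of the series, 28653 did. The 2 searches differ in size and cannot be compared, and wells shared between the 485 and other cells were not counted. The automatic threshold of a doublet caller (Scrublet) marked 82 of 90855 cells and 0 of the 485, a share so low that the call did not work. Among the 6% of cells with the highest doublet scores per sublibrary were 14 of the 485 (2.89%), against 5.89% of all cells.

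Genes that the selection did not read matched the label. Of 14 further markers of mature DCs, 14 were over 2-fold higher in the selected cells than in all other cells, from 3.32-fold for *Samsn1* to 190-fold for *Cacnb3*, while 505 of 4012 genes compared (12.6%) passed that fold. *Cacnb3*, a calcium channel subunit, was at 508 counts per 1000000 (CPM) in them, at 2.09 in cDC1, 0.391 in cDC2 and 2.68 in all other cells. *Mreg*, which encodes melanoregulin, was at 1108 CPM in them and at 10.7 CPM in cDC1 and 40.1 CPM in cDC2, and was 73.7-fold above all other cells. *Zbtb46*, a transcription factor of conventional DCs, and *Flt3*, the receptor for their growth factor, were 5.78-fold and 10.7-fold above all other cells. Some of the 14 markers set the cells apart less from other DCs. *Flt3* was at 489 CPM against 447 CPM in cDC1, *Zbtb46* at 365 CPM against 289 CPM in cDC1, and *Cd83* at 1839 CPM against 1435 CPM in cDC2. The cDC1 and cDC2 used for comparison were cells with at least 3 counts over at least 2 markers of their type (2195 and 3161 cells), within the same limits on other cell types and leaving out the migratory DCs themselves and 68 cells that met both criteria.

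**Figure D1:**
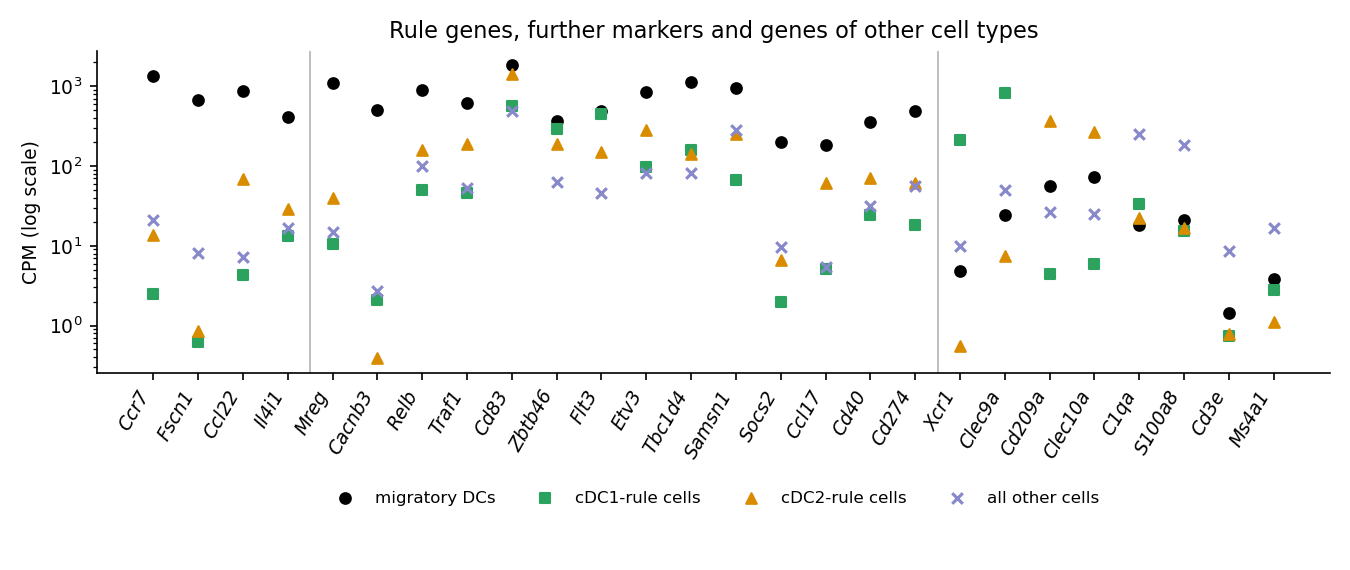
Level of the 4 genes of the selection, 14 further markers of mature DCs and 8 genes of other cell types (CPM of summed counts, log axis) in 485 migratory DCs, 2195 cDC1, 3161 cDC2 and all other cells past the limits. Every one of the 14 further markers sits above its level in all other cells, and *Xcr1* sits below its level there, whereas *C1qa*, *Cd3e* and *Ms4a1* were limited by the selection.

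Markers of cDC1 were low. *Xcr1* was at 4.81 CPM and *Clec9a* at 24.5 CPM, against 212 and 833 CPM in cDC1. *Cd209a* and *Clec10a* were at 55.8 and 72.6 CPM, against 371 and 271 CPM in cDC2. These 2 genes were above their 26.7 and 25.3 CPM in all other cells. Of 8 cDC2 genes compared, 4 were over 2-fold higher than in all other cells (median log2 difference 0.81, against -0.20 over all genes compared), among them *Tnip3* at 503 against 109 CPM. Of 11 macrophage, 7 endothelial and 6 tubule genes compared, 0 were over 2-fold higher than in all other cells, and some genes of these lists were among those the selection limited.

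The 15 genes with the highest ratio to all other cells, among those of at least 50 CPM, held *Ccr7*, *Fscn1*, *Ccl22* and, beyond the selection, *Oprd1*, *Cacnb3*, *Apol7c*, *Slco5a1*, *Il12b*, *Synpo2*, *Gm33843*, *Mreg*, *4933406J09Rik*, *Dscaml1*, *Slc44a5* and *Tmem150c*. First stood *Oprd1*, the delta opioid receptor, at 55.3 CPM against 0.209 CPM in all other cells. *Apol7c*, an apolipoprotein L family gene, reached 118 CPM against 0.638. *Slco5a1*, an organic anion transporter family gene, reached 239.9 CPM against 1.37. *Il12b*, which encodes the p40 chain shared by IL-12 and IL-23, stood at 272 CPM against 1.78 in all other cells.

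The 4 genes of the selection were not held evenly. *Ccr7* (chr11:99144196-99155077, minus strand) had a count in 422 of the 485 cells, *Il4i1* (chr7:44816387-44840809, plus strand) in 356, *Ccl22* (chr8:94745590-94751699, plus strand) in 326 and *Fscn1* (chr5:142960343-142973185, plus strand), all in GRCm38, in 262. For background, a *Ccr7* count stood in 0.774% of cDC1 and 3.13% of cDC2, whose median depths (3898 and 3721 counts) were close to that of the migratory DCs, and an *Fscn1* count in 0.273% and 0.316%. A *Ccl22* count stood in 1.14% of cDC1 and 10.7% of cDC2, and an *Il4i1* count in 5.19% and 9.33%. Since the selected cells had been taken out of the cDC1 and cDC2 first, these shares are low in part by construction. All 4 genes were detected together in 106 cells, 3 of them in 184 and 2 in 195, and the summed count had a median of 10 and a maximum of 72.

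Cells on both sides of the threshold had less *Cacnb3* and *Mreg* than the selected cells as a whole. The 56 selected cells with a sum of exactly 4 had 90.3 CPM of *Cacnb3* and 298 CPM of *Mreg*, and the 63 cells left out with a sum of 3 had 42.8 and 311 CPM. A further 153 cells reached 4 counts in 1 gene alone and had 24.5 CPM of *Cacnb3*. The limits on other cell types removed 138 cells, with a median of 7034 counts and 191 CPM of *Cacnb3*, and the quality limits removed 3.

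Some of the 485 cells carried a cDC2 profile. With neither *Ccr7* nor *Fscn1*, 50 cells were selected through *Ccl22* and *Il4i1*, 35 of them in the vehicle pool of day 14. Their *Cacnb3* was 17.3 CPM, against 569.7 in the other 435 cells, and their *Mgl2*, a C-type lectin gene of cDC2, was 509.6 CPM against 122. In all, 115 cells (23.7%) also met the cDC2 criterion (at least 3 counts over at least 2 of *Cd209a*, *Clec10a*, *Mgl2* and *Tnip3*). They made up 4 of 38 cells (10.5%) in control, and in order of day 9 of 83 (10.8%), 13 of 33 (39.4%) and 76 of 214 (35.5%) in vehicle pools, and in the entospletinib pools 6 of 51, 3 of 23 and 4 of 43 (from 9.30 to 13%). The vehicle pools of days 7 and 14 had the highest shares, with exact binomial 95% intervals of 22.9 to 57.9% and 29.1 to 42.3%. The interval of vehicle at day 14 lay above those of control, of day 1 with either treatment and of entospletinib at day 14, and overlapped that of entospletinib at day 7 (2.78 to 33.6%). A criterion of 3 counts is met more easily in deeper cells, and the migratory DCs of day 14 had a median of 4080 counts with vehicle and 1685 with entospletinib. The summed level of the 4 cDC2 genes over all migratory DCs, which does not use the criterion, was closer between treatments, with 983 CPM in the vehicle pool and 566 CPM in the entospletinib pool of day 14, and 890 and 827 CPM in those of day 7. It was 667 CPM in control, and 508 and 576 CPM at day 1. The shares and the fits of treatment and day given further on were therefore also computed without these cells.

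*Il12b* marked another portion. It had a count in 66 cells (13.6%), against 3 of 3161 cDC2 (0.0949%) and 22 of 2195 cDC1 (1.00%). By pool they were 7 of 38 in control (18.4%), in order of day 6, 4 and 34 in vehicle pools (7.23%, 12.1% and 15.9%), and 3, 5 and 7 in entospletinib pools (5.88%, 21.7% and 16.3%). The pools overlapped widely in their intervals. Beside the cells without it, the cells with *Il12b* had more *Irf8*, a transcription factor of cDC1 (496 against 135 CPM), more *Laptm4b* (298 against 40.7 CPM) and more *Bcl2l14*, a BCL2 family gene (400.1 against 75.8 CPM). They had less *Clec10a* (9.60 against 83.7 CPM) and less *Itgam*, the CD11b gene (19.2 against 149 CPM). *Xcr1* was at 22.4 CPM in them, against 1.70 CPM in the cells without *Il12b* and 212 CPM in cDC1. Of other cDC1 genes, *Clec9a* (44.8 against 20.9 CPM) and *Cadm1* (256 against 104 CPM) were higher in the cells with *Il12b*. *Wdfy4* was lower in them (378 against 504 CPM). These are descriptions of cells split by a count, pooled over conditions.

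The first comparison asked how frequent migratory DCs were after IRI and with the SYK inhibitor. They were 0.339% of control cells (38 of 11205). With vehicle they were 0.369% at day 1 (83 of 22489), 0.540% at day 7 (33 of 6110) and 1.24% at day 14 (214 of 17261), with exact binomial 95% intervals of 0.294 to 0.457%, 0.372 to 0.758% and 1.08 to 1.42%. With entospletinib they were 0.363% (51 of 14041), 0.302% (23 of 7605) and 0.354% (43 of 12144), with intervals of 0.271 to 0.477%, 0.192 to 0.453% and 0.256 to 0.477%. The vehicle pool of day 14 lay above the other 6 pools, which were all within 0.302 to 0.540%. The share in that pool was 3.66-fold that of control (log2 ratio 1.87, 95% counting interval 1.37 to 2.41, higher in 8 of 8 sublibraries).

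**Figure D2:**
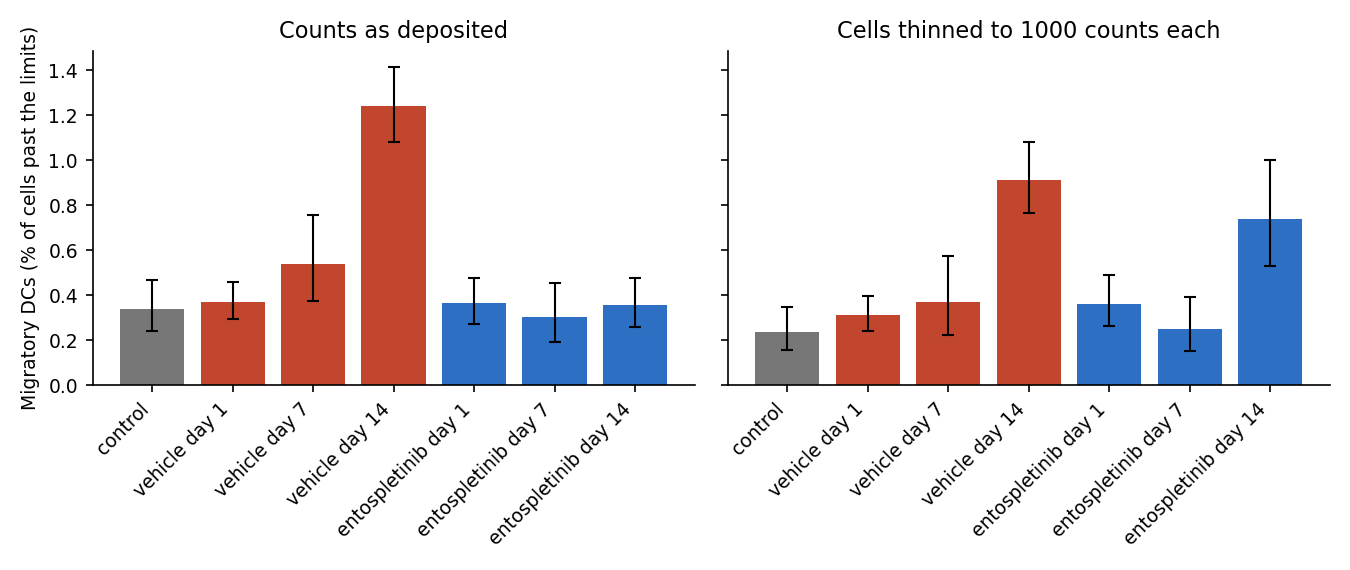
Migratory DCs as a percentage of the cells past the limits in each pool of 3 mice, from counts as deposited (left) and after every cell with at least 1000 counts was thinned to 1000 (right). Bars are single pools and error bars are exact binomial 95% intervals, which cover counting error only. As deposited the vehicle pool of day 14 stands alone at 1.24%, and after thinning it is 0.912% beside 0.739% with entospletinib at day 14.

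With entospletinib the share was 3.50-fold lower than with vehicle at day 14 (log2 ratio -1.81, 95% counting interval -2.32 to -1.33, SD over sublibraries 0.31, lower in 8 of 8). The log2 ratio was -0.84 at day 7 (-1.67 to -0.02, lower in 7 of 8) and -0.02 at day 1 (-0.56 to 0.50, lower in 4 of 8). Over the 3 same-day pairs the mean was -0.89 (SD 0.89, lower in 3 of 3), and the exact two-sided sign-flip permutation test gave p = 0.25, the smallest that 3 pairs allow. The day 14 difference was smaller when depth was limited. Among cells of at least 1000 counts, which left 5547 of 12144 entospletinib cells and 14587 of 17261 vehicle cells, it was -1.09 (-1.63 to -0.59). With each of those cells thinned to 1000 counts and the selection lowered to a sum of 2, it was -0.30 (-0.85 to 0.21, lower in 5 of 8 sublibraries). That setting changed the depth and the sum together, with 213 and then 133 cells selected with vehicle and 38 and then 41 with entospletinib, and the part of each was not tested. The higher share of day 14 vehicle over control kept its size after thinning, at a log2 ratio of 1.94 (1.33 to 2.61). Thinned in the same way, entospletinib at day 14 was above control by 1.64 (0.89 to 2.41).

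The share also depended on what it was set against. As a share of migratory DCs, cDC1, cDC2 and the cells that met both criteria, the cells were 3.91% in control. In order of day they were 14.1%, 7.64% and 10.7% in vehicle pools and 7.93%, 3.17% and 7.80% in entospletinib pools. All injured pools but entospletinib at day 7 were then above control. Entospletinib was below vehicle at each day, by a log2 ratio of -0.83 (-1.37 to -0.31), -1.27 (-2.10 to -0.46) and -0.46 (-0.96 to 0.02). At day 14 the cDC2 were also a smaller part of the entospletinib pool, with 240 of 12144 cells against 1177 of 17261 with vehicle. The cDC1 were 267 and 584 cells there. With entospletinib and vehicle, cDC2 were 353 of 14041 and 349 of 22489 cells at day 1, and 398 of 7605 and 245 of 6110 at day 7. Without the cells that also met the cDC2 criterion, day 14 was 0.799% with vehicle and 0.321% with entospletinib (log2 ratio -1.32, -1.87 to -0.79). At day 7 the ratio was then -0.32 (-1.29 to 0.65), and that of vehicle over control was 0.11 (-0.77 to 0.95) in place of 0.67 (-0.05 to 1.38).

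*Ccr7* was at 1759 CPM in the migratory DCs of control, at 1873, 1171 and 914 CPM in vehicle pools (in order of day, as throughout), and at 1918, 1698 and 2176 CPM in entospletinib pools. Its levels were lowest in the vehicle pools of days 7 and 14, and the others lay between 1698 and 2176 CPM. *Fscn1* was at 625 CPM in control, 1143, 207 and 469 CPM in vehicle pools and 937, 1099 and 873 CPM in entospletinib pools, and the same 2 vehicle pools were lowest. *Ccl22* was at 576 CPM in control, 663, 699.7 and 981 CPM in vehicle pools and 1538, 664 and 898 CPM in entospletinib pools, where day 1 of entospletinib stood highest and the ranges of both treatments overlapped. *Il4i1* spanned 329 to 541 CPM over the 7 pools, and its 3 entospletinib values were above the vehicle values. These 4 levels were set partly by the selection. *Cacnb3*, which was not selected on, was at 570.3 CPM in control, 873, 281 and 300.3 CPM in vehicle pools and 665, 805 and 787 CPM in entospletinib pools, again lowest in the vehicle pools of days 7 and 14. In those 2 pools the cells with the cDC2 criterion were most frequent (39.4% and 35.5%), and their part in these levels was not tested.

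**Figure D3:**
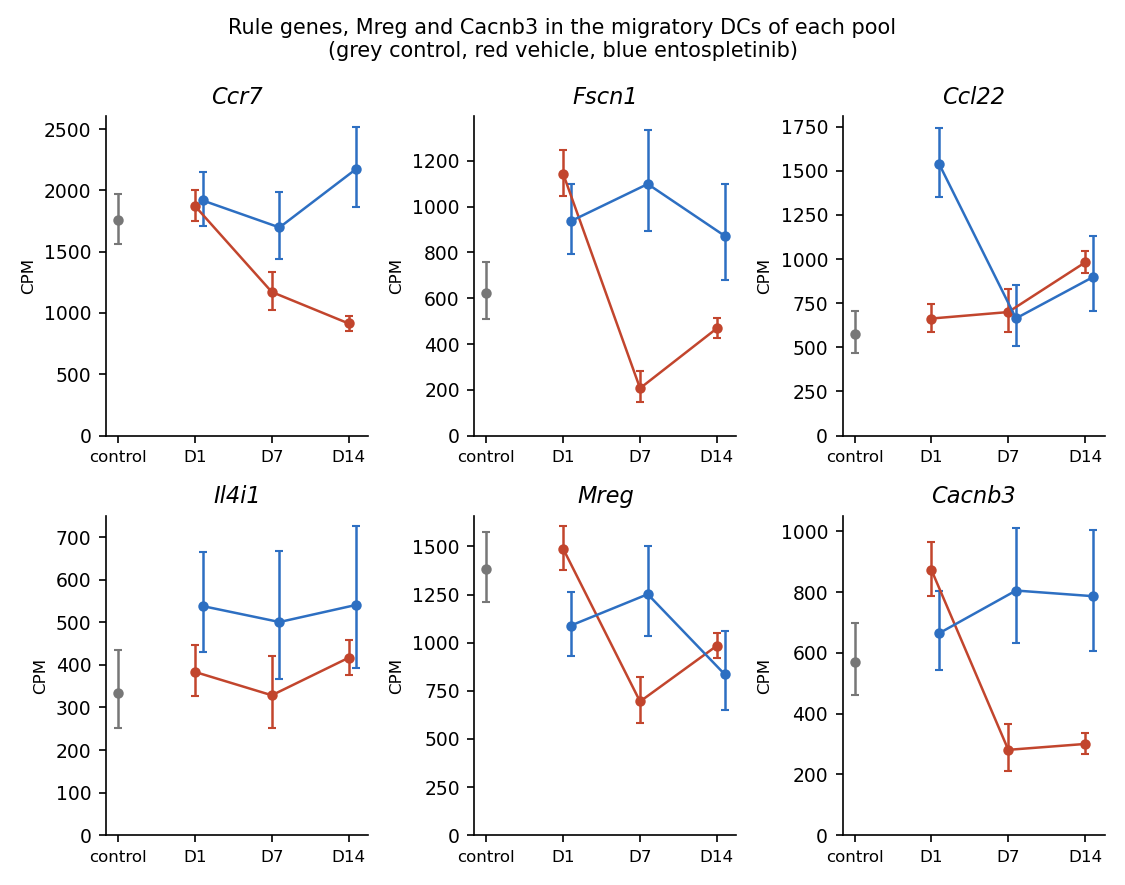
Level in CPM of the 4 genes of the selection and of *Mreg* and *Cacnb3* in the migratory DCs of each pool (vertical axis from 0), for control and for days 1, 7 and 14 after IRI. Points are single pools of 3 mice joined by treatment and error bars are exact Poisson 95% intervals of counting error. *Ccr7*, *Fscn1* and *Cacnb3* are lowest in the vehicle pools of days 7 and 14.

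NF-kB genes set the migratory DCs apart from cDC1 more than from cDC2. Of the 24 genes of the NF-kB and survival list that could be compared, 22 were over 2-fold higher than in cDC1 (16.2% of all genes compared). By the same fold, 14 were higher than in all other cells (12.6% of all genes compared) and 11 higher than in cDC2 (12.3% of all genes compared). The list's median log2 difference was 2.18 over cDC1 and 0.87 over cDC2, where all genes compared had -0.15 and -0.09. *Relb*, the subunit of the alternative pathway, was at 904 CPM against 50.9 in cDC1 and 159 in cDC2. *Map3k14*, which encodes the kinase NIK above it, was at 813 CPM against 182 and 372. *Rel*, the c-Rel subunit, was at 1645 CPM against 282 and 876. *Traf1* was at 624 CPM against 46.0 and 188, and *Nfkbia*, the gene of the inhibitor IkB-alpha, at 809.7 CPM against 115 and 590.4. All 5 were highest in the migratory DCs.

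Several of these genes are known targets of NF-kB, so their promoters were searched on both strands for the letters GGG, then any 2 bases, then TTTCC. A match was held by at least 1 promoter of 9 of the 22 list genes with an entry among RefSeq promoters (GRCm38.p6, 250 bases before to 50 bases after a start), and by 535 of all 32851 promoters (1.63%). A gene can have several promoters, so the 2 shares count different things. None of 3 genes of the selection with an entry and none of 12 leading genes with one held a match, which says only that these letters were not in that window. Windows of 60 bases are shown for 4 list genes with a match, written 5′ to 3′ in the direction of the gene, with the match in capitals.
Nfkb2, chr19:46304677-46304736, plus strand: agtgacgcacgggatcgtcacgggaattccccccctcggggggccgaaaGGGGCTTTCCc
Nfkbia, chr12:55492648-55492707, minus strand: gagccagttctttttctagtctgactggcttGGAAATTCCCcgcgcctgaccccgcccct
Rel, chr11:23771026-23771085, minus strand: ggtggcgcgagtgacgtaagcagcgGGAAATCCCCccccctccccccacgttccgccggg
Tnfaip3, chr10:19015411-19015470, minus strand: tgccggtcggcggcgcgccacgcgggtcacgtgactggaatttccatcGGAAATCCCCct
The match of *Nfkb2*, which encodes the p100 precursor, began 11 bases before a RefSeq start, that of *Nfkbia* 29 bases, that of *Rel* 91 bases and that of *Tnfaip3*, the gene of the NF-kB inhibitor A20, 12 bases. The starts of *Nfkb2* and *Tnfaip3* used here lie inside the annotated genes and are alternative starts. A match of letters is no evidence of binding. Across the pools the list's summed level ran from 10262 CPM (vehicle, day 7) to 14373 CPM (vehicle, day 1).

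Costimulatory and coinhibitory ligands followed the same order. Of 12 genes compared, 10 were over 2-fold higher and 1 over 2-fold lower than in cDC1, and 5 were over 2-fold higher and 2 over 2-fold lower than in cDC2. Over all genes compared, 16.2% were that much higher and 560 of 3783 that much lower than in cDC1, and 12.3% higher and 10.5% lower than in cDC2. *Cd274*, which encodes PD-L1, was at 498 CPM against 18.5 CPM in cDC1 and 62.0 CPM in cDC2. *Cd40* was at 359 CPM against 24.1 and 70.6. *Cd86* differed less, at 1134 CPM against 538 and 802. By pool, *Cd274* was at 461 CPM in control, 774, 371 and 388 CPM in vehicle pools and 671, 359 and 516 CPM in entospletinib pools, highest at day 1 with either treatment.

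Of 16 migration and cytoskeleton genes, 14 were over 2-fold higher and 1 over 2-fold lower than in all other cells, where 12.6% and 19.5% of all genes compared were. Against cDC2, 10 were over 2-fold higher and 1 over 2-fold lower, beside 12.3% and 10.5% of all genes. *Plxnc1*, a semaphorin receptor, was at 1178 CPM against 192 CPM in cDC2. *Rftn1*, which encodes raftlin, was at 1362 CPM against 429. *Swap70*, an actin regulator, was at 900.1 CPM against 217, and *Dock10* had the most counts of the list, at 2409 CPM against 1545.

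Among chemokines and cytokines, *Ccl5* was at 171 CPM in the migratory DCs against 1.78 in cDC1 and 3.99 in cDC2. *Il2ra*, the CD25 gene, was at 310.1 CPM against 3.87 and 22.1. *Il15ra*, whose product presents IL-15 to T and NK cells, was at 254 CPM against 23.2 and 8.68. In contrast *Il1b* was at 1757 CPM, below the 2477 CPM of cDC2 and the 1986 CPM of all other cells. *Ccl17*, the other ligand of CCR4, was at 184 CPM in the migratory DCs and was uneven, at 115 CPM in control, 64.7, 307 and 191 CPM in vehicle pools and 291, 76.2 and 492 CPM in entospletinib pools, with no order by treatment.

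Antigen presentation genes had a median log2 difference of -0.08 from cDC2. Of 19 compared, 3 were over 2-fold higher and 3 over 2-fold lower than in cDC2, where 12.3% of all genes compared were that much higher and 10.5% that much lower. *Cd74*, the invariant chain, was at 4788 CPM against 4386 in cDC1 and 7303 in cDC2, and *H2-Ab1* at 1487 CPM against 1495 and 2348. *Nlrc5*, the regulator of MHC class I genes, stood out at 644 CPM against 263 and 134. Of 20 SYK pathway genes compared, 0 were over 2-fold higher and 5 over 2-fold lower than in cDC2 (median log2 difference -0.66), and of 23 compared with all other cells, 1 was higher and 8 were lower by that fold (median -0.85), beside 12.6% and 19.5% of all genes (median -0.20). *Malt1* was at 1279 CPM against 103 in cDC1 and 863 in cDC2, and *Syk* itself at 723 CPM against 263 and 857.

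No gene passed the threshold for a treatment difference shared by the 3 days. Counts were summed over the migratory DCs of each of the 6 injured pools and fitted with day and treatment. Of 3277 genes tested, 0 were called higher (0%) and 0 lower (0%) at an adjusted p under 0.05 in edgeR's quasi-likelihood test with Benjamini-Hochberg adjustment, and the lowest adjusted p was 0.0557. At an unadjusted p under 0.05, 125 were higher (3.81%) and 161 lower (4.91%), and DESeq2 also called 0, with 127 at an unadjusted p under 0.05. Without the day 1 pools 92 genes were called and without the day 7 pools 23, in fits that rest on 4 pools. The genes with the 5 smallest p-values in each direction are described next as values that did not pass.

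*Bcl2l14* was at 37.0, 117 and 89.4 CPM in vehicle pools and 114, 414 and 369 CPM in entospletinib pools, and at 297 CPM in control. It was higher with entospletinib on each day, although the ranges of both treatments overlapped (log2 difference 1.75, SE 0.29, edgeR adjusted p = 0.0557). *Adam19*, a membrane metalloproteinase gene, was at 134, 63.6 and 171 CPM in vehicle pools and 241, 359 and 418 CPM in entospletinib pools (log2 difference 1.36), and *N4bp2l1* at 233, 90.1 and 187 CPM and 336, 479 and 455 CPM (1.23). Neither overlapped between treatments, and both were high in control (540.0 and 552 CPM). All 3 genes were lower in cDC2, at 1.95, 62.2 and 49.6 CPM, and higher in cells with *Il12b* than without (400.1, 560.1 and 608 CPM against 75.8, 144 and 188). Without the cells that also met the cDC2 criterion the log2 differences were 1.40, 1.16 and 0.93, in place of 1.75, 1.36 and 1.23.

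*Cxcl9* and *Cxcl10*, interferon-induced ligands of CXCR3 that attract T and NK cells, came next. *Cxcl9* was at 0, 21.2 and 39.5 CPM in vehicle pools and 196, 337 and 86.1 CPM in entospletinib pools, and *Cxcl10* at 9.24, 10.6 and 37.4 CPM and 50.7, 185 and 148 CPM. Neither overlapped between treatments, but the counts came from few cells, since 5 cells held 63.0% of the *Cxcl9* counts and 56.2% of the *Cxcl10* counts. Control was at 146 CPM of *Cxcl9* and 6.07 CPM of *Cxcl10*. The log2 differences were 3.15 and 2.49 (edgeR adjusted p = 0.151 for both).

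**Figure D4:**
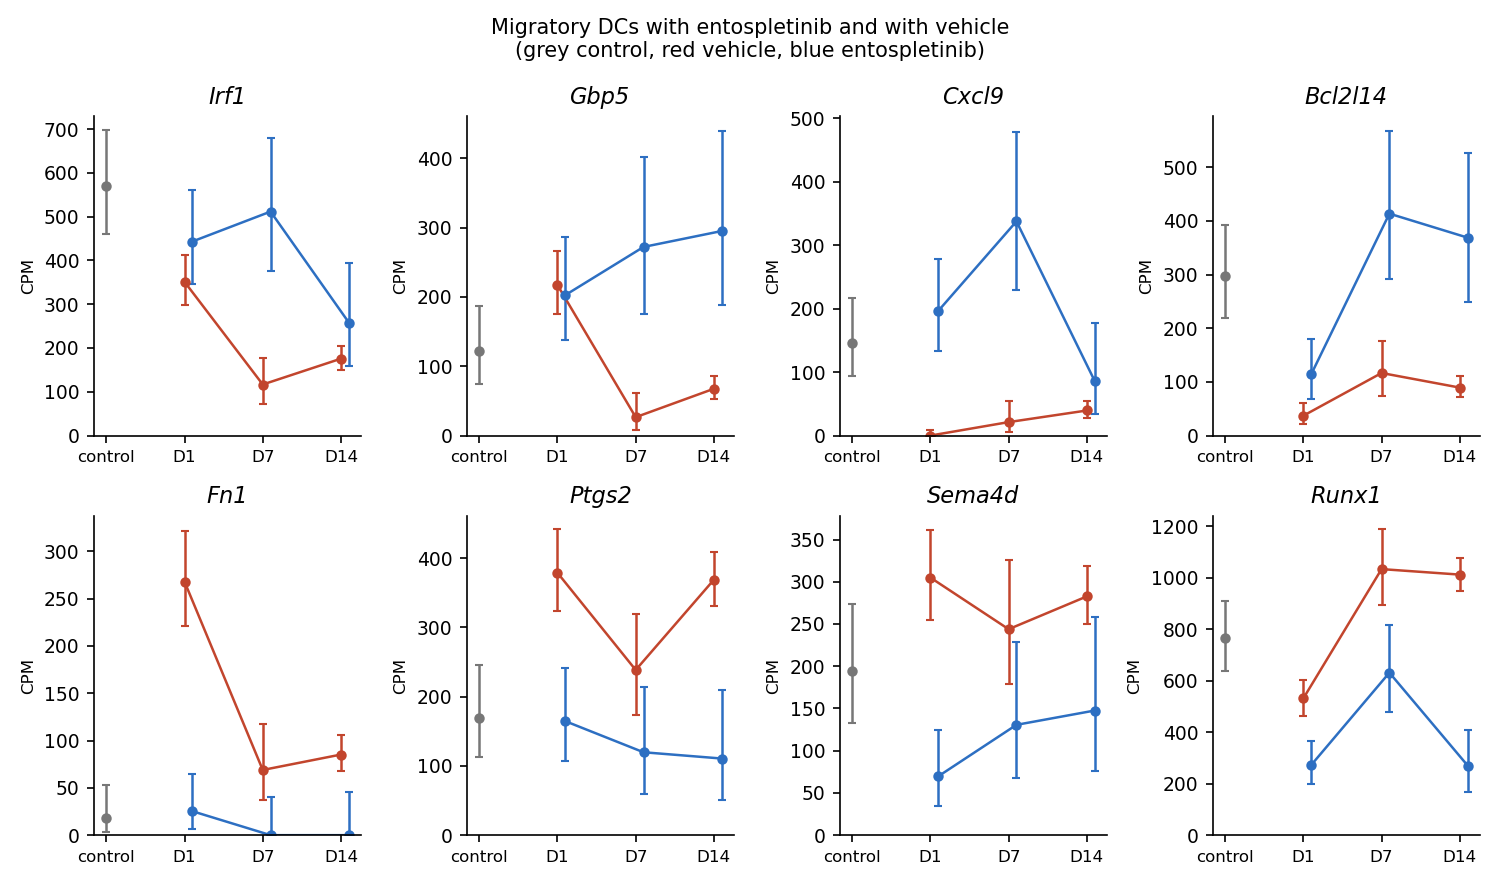
Level in CPM in the migratory DCs of each pool (vertical axes from 0) for 4 genes that were mostly higher and 4 that were mostly lower with entospletinib than with vehicle, at control and days 1, 7 and 14 after IRI. Points are single pools of 3 mice and error bars are exact Poisson 95% intervals of counting error. For *Irf1* and *Gbp5* the treatments are close at day 1 and apart at day 7.

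Of 16 interferon-response genes listed, 10 passed the filter on low counts. Those 10 had a log2 difference above 0, as did 1598 of all 3277 genes tested (median 0.99, against -0.02 over all genes). At an unadjusted p under 0.05 in the edgeR test, 5 of them were higher, against 3.81% of all genes, and 0 were called. Leaving out the day 7 pools, 9 of 10 were above 0 with a median of 0.48, without the cells that met the cDC2 criterion 7 of 9 with a median of 0.62, and with no filter 12 of 16. *Gbp5*, a guanylate-binding protein gene, was at 217, 26.5 and 67.5 CPM in vehicle pools, 203, 272 and 295 CPM in entospletinib pools and 121 CPM in control. *Irf1*, a transcription factor induced by interferon gamma, was at 351, 117 and 176 CPM in vehicle pools, 443, 512 and 258 CPM in entospletinib pools and 570.3 CPM in control. Both were close between treatments at day 1 and higher with entospletinib at day 7. The summed level of the 16 listed genes was 1654, 769 and 1071 CPM in vehicle pools, 1659, 2481 and 1930 CPM in entospletinib pools and 2032 CPM in control. Of the 10 genes tested, 4 were higher with entospletinib on all 3 days, as were 575 of all 3277 genes.

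The vehicle pool of day 7 differed in makeup in all its cells. In its migratory DCs 13.1% of counts came from 6 abundant genes, against 4.30 to 7.43% in the other pools, and the part of this in the levels of that pool was not tested.

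*Ccl5* was at 210.2, 31.8 and 110.2 CPM in vehicle pools, 253, 305 and 443 CPM in entospletinib pools and 297 CPM in control (log2 difference 1.51, SE 0.37, edgeR adjusted p = 0.235). Of the 15 chemokine and cytokine genes tested, 11 had a log2 difference above 0 (median 0.63), against 1598 of all 3277 genes. Without the cells of the cDC2 criterion 7 of 12 were above 0 (median 0.25), and without the day 7 pools 10 of 15 (median 0.15). Of 50 genes that had been picked as markers of *Ccr7* DCs in these same cells, which makes them no independent evidence, 40 were above 0 with a median of 0.25. Without the cells of the cDC2 criterion 30 of the 50 were above 0, with a median of 0.06, without the day 7 pools 32, with a median of 0.12, and with no filter 29.

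Genes lower with entospletinib included *Fn1*, the fibronectin gene, at 268, 68.9 and 85.2 CPM in vehicle pools and 25.3, 0 and 0 CPM in entospletinib pools, without overlap (log2 difference -3.79, SE 0.60, edgeR adjusted p = 0.0557). Only 35 cells held an *Fn1* count, 1 cell held 33.9% of the counts and 5 held 76.6%, and without the highest doublet scores the log2 difference was -1.90. *Ptgs2*, which encodes cyclooxygenase-2, was at 379, 239 and 369 CPM and 165, 119.7 and 111 CPM, without overlap (log2 difference -1.36). *Mob3b* was at 76.2, 207 and 201 CPM and 25.3, 32.7 and 49.2 CPM (-2.19), and *Sema4d*, a semaphorin gene, at 305, 244 and 283 CPM and 69.6, 131 and 148 CPM (-1.42), neither with overlap. *Runx1*, a hematopoietic transcription factor, was at 531, 1034 and 1012 CPM and 272, 631 and 270.5 CPM (-1.26), lower on each day. *Runx1* and *Mob3b* were higher in cDC2 (2023 and 287 CPM) than in the migratory DCs as a whole (792 and 138 CPM), and without the cells of the cDC2 criterion their log2 differences were -0.95 and -2.01.

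Of 20 SYK pathway genes tested, 14 had a log2 difference below 0 (median -0.22), against 1679 of all 3277 genes (median -0.02). At an unadjusted p under 0.05, 2 of the 20 were lower, against 4.91% of all genes, and 0 were called. *Syk* was at 735, 954 and 763 CPM in vehicle pools, 544, 457 and 615 CPM in entospletinib pools and 564 CPM in control, lower on each day (log2 difference -0.67, SE 0.27, edgeR adjusted p = 0.478). Of 3 monocyte genes tested, 2 had a log2 difference below 0, both at an unadjusted p under 0.05 and neither called. *Ccr2*, the receptor for CCL2, was at 136, 133 and 164 CPM and 38.0, 65.3 and 36.9 CPM without overlap (log2 difference -1.72, edgeR adjusted p = 0.151). Of 8 neutrophil genes listed, 3 were tested, of which 1 was higher and 1 lower at an unadjusted p under 0.05 and 0 were called (median -0.67). The summed level of all 8 was 746, 975 and 824 CPM in vehicle pools, 1019, 914 and 332 CPM in entospletinib pools and 455 CPM in control, higher with entospletinib at day 1 and lower at days 7 and 14. *Il1r2*, the gene of the decoy receptor for interleukin-1, was at 511, 885 and 656 CPM in vehicle pools and 209, 892 and 172 CPM in entospletinib pools (log2 difference -1.07, SE 0.30, edgeR adjusted p = 0.277). *S100a9*, a calprotectin gene of the same list, was highest in the entospletinib pool of day 1, where it was at 386 CPM against 18.2 to 76.2 CPM in the other pools.

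From day 1 to day 7, with both treatments in the fit, 10 of 3277 genes rose (0.305%) and 1 fell (0.0305%) in edgeR's quasi-likelihood test with Benjamini-Hochberg adjustment, where 218 (6.65%) were higher at an unadjusted p under 0.05. Each of the 11 had an adjusted p of 0.0466. Upper quartile scaling called 0 genes, as did the fit without the day 14 pools, and DESeq2 called 11, of which 5 were shared. The genes that rose were *Elovl5*, a fatty acid elongase gene (log2 difference 1.92, SE 0.31), *Dcstamp* (4.52), *Arap2* (2.30), *Nav2* (3.30), *Mtss1* (2.09), *4933406J09Rik* (2.52), *Fosb* (2.36), *mt-Nd5* (1.52), *Slc15a3* (1.82) and *Bcl2l14* (1.91). Mitochondrial genes held 2.62, 7.51 and 5.93% of the counts of migratory DCs in vehicle pools, 2.66, 6.63 and 5.30% in entospletinib pools and 4.40% in control. All other cells were also lowest at day 1 (at most 3.8%, against 5.81 to 7.77% in the other pools), and the part of this in the differences between days was not tested. The gene that fell was *Synpo2*, an actin-binding protein gene (-3.15, SE 0.56), at 353, 26.5 and 47.8 CPM in vehicle pools and 234, 32.7 and 148 CPM in entospletinib pools. It was lowest at day 7 with either treatment. *Elovl5* was, at days 1 and 7, at 206 and 572 CPM in vehicle pools and 114 and 468 CPM in the entospletinib pools of those days, without overlap between them, and its log2 difference was 0.66 without the cells of the cDC2 criterion. *Dcstamp*, *Nav2* and *Mtss1* were each higher in cDC2 (180.3, 190.3 and 405 CPM) than in the migratory DCs (105, 70.7 and 175 CPM).

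From day 1 to day 14, 0 genes were called higher (0%) and 0 lower (0%) by the same edgeR test, with a lowest adjusted p of 0.0584. At an unadjusted p under 0.05, 178 (5.43%) were higher and 188 (5.74%) lower, DESeq2 called 7, and without the day 7 pools 146 were called. *Fosb*, an AP-1 subunit gene, was at 41.6, 212 and 258 CPM in vehicle pools and 31.7, 87.1 and 172 CPM in entospletinib pools, lowest at day 1 with either treatment (log2 difference 2.73, SE 0.43, edgeR adjusted p = 0.0584). *Kynu*, the kynureninase gene of tryptophan breakdown, was at 120.1, 228 and 339.8 CPM and 114, 435 and 479 CPM, and *Slc15a3*, a lysosomal peptide transporter gene, at 106, 345 and 389 CPM and 101, 272 and 270.5 CPM. In both, days 1 and 14 did not overlap (log2 differences 1.85 and 1.83).

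Genes lower at day 14 than at day 1 included *Pou2f2*, the Oct-2 gene, at 420.4, 133 and 133 CPM in vehicle pools and 525, 196 and 86.1 CPM in entospletinib pools (log2 difference -1.80). *Chst11*, a chondroitin sulfotransferase gene, was at 1321, 535 and 460.4 CPM and 1349, 533 and 344 CPM (-1.60). *Cd200*, a ligand that restrains myeloid cells, was at 448, 117 and 83.1 CPM and 374, 185 and 172 CPM (-1.81). For these 3 genes day 1 stood above days 7 and 14 with either treatment and above control (78.9, 564 and 146 CPM), and with an edgeR adjusted p of 0.0639 none passed the threshold. *Prdm1*, the Blimp-1 gene, had a log2 difference of -2.38 and *Septin9* of -2.03.

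**Figure D5:**
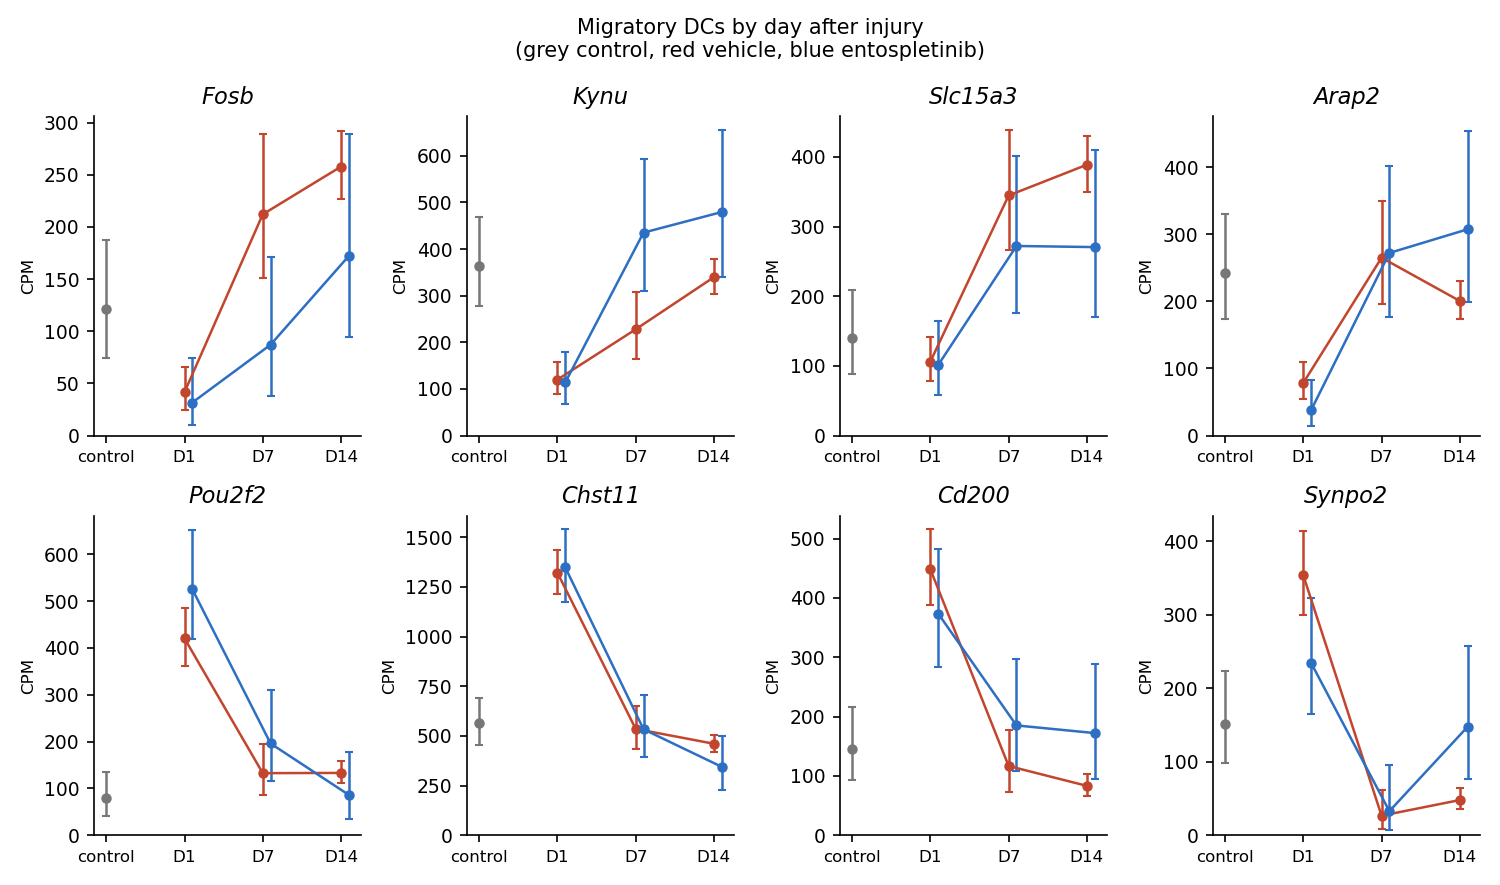
Level in CPM in the migratory DCs of each pool (vertical axes from 0) for 4 genes higher and 4 lower after day 1, at control and days 1, 7 and 14 after IRI. Points are single pools of 3 mice joined by treatment and error bars are exact Poisson 95% intervals of counting error. *Pou2f2*, *Chst11* and *Cd200* are highest at day 1 with both treatments, and *Synpo2* is lowest at day 7.

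Of 15 immediate early genes listed, 11 passed the filter. Those 11 had a log2 difference of day 14 over day 1 above 0, as did 1646 of all 3277 genes tested (median 0.69, against 0.00 over all genes). At an unadjusted p under 0.05 in the edgeR test, 5 of them were higher, against 5.43% of all genes, and 0 were called. Without the cells of the cDC2 criterion 9 of 10 were above 0, with a median of 0.49. *Nr4a3*, a nuclear receptor gene of DC migration, was at 1319, 2125 and 2915 CPM in vehicle pools, 1159, 1687 and 1734 CPM in entospletinib pools and 2117 CPM in control, with day 1 lowest in each treatment. *Egr1* was at 13.9, 31.8 and 166 CPM, 19.0, 119.7 and 36.9 CPM and 139.5 CPM in the same order. Day 1 was again lowest, and control lay within the range of the later days for both genes. The mitochondrial share of counts, given above, was lowest in the same pools of day 1. Genes of this kind also respond to tissue dissociation, which was not measured apart from the injury.

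At day 14 the migratory DCs of vehicle and control were compared as single pools, among 4494 genes with at least 30 counts in both together. Over 2-fold higher were 10.1% of these and over 2-fold lower 6.83%. *Itgax*, the CD11c gene, had 359 counts with vehicle and 12 in control (log2 ratio 2.30, counting interval 1.53 to 3.32). *Rgs2*, a regulator of G-protein signalling, had 160 and 5 counts (2.32), and with so few control counts both ratios are imprecise. Lower were *Cyth3* (26 and 38 counts, -3.08) and *Gbp9*, a guanylate-binding protein gene (43 and 38 counts, -2.37). Genes of cDC2, monocytes, neutrophils and macrophages were also higher with vehicle than in control, where cells of the cDC2 criterion were 35.5% and 10.5% of migratory DCs. The summed level of 12 cDC2 genes was 2682 CPM with vehicle and 1899 CPM in control, that of 8 monocyte genes 328 and 109 CPM, that of 8 neutrophil genes 824 and 455 CPM, and that of 12 macrophage genes 539 and 267 CPM. None of these genes was at 0 with vehicle, and in control 2, 3, 3 and 2 of them were, in the same order. The depth behind this differed, with 962274 summed counts over 214 cells with vehicle and 164829 over 38 cells in control. Over all genes, 41826 were at 0 with vehicle and 47014 in control. Other lists were lower with vehicle, at 40.5 against 170 CPM for B cells, 81.1 against 200 CPM for endothelium and 1207 against 1310 CPM for cDC1. Genes of plasmacytoid DCs (317 against 346 CPM), tubule (79.0 against 84.9 CPM) and stroma (11.4 against 12.1 CPM) were lower too. T cell and NK cell genes were at 46.8 and 2.08 CPM with vehicle and at 0 in control. The part of these lists in the ratios of single genes was not tested.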

How the data were processed

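Single-cell RNA-seq libraries (Parse Evercode) of pooled kidney cells were demultiplexed and aligned to mm10 by the authors with the Parse Biosciences pipeline. They deposited 1 matrix of counts of transcripts per gene and cell and 1 cell table. Conditions were read from the cell table, since the 8 deposited samples are all mixtures of every condition. Members and gene lists were chosen with earlier results of these data known.

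Cells were selected by fixed counts, counts were summed per pool, and CPM were computed from the deposited counts. Named were the genes of the selection, list genes, the 15 highest ratios of at least 50 CPM, the 5 smallest p-values or up to 15 calls per direction, and the 10 largest single-pool ratios of at least 30 counts. Injured pools were fitted with edgeR 4.0.16 (R 4.3.3; filterByExpr, TMM, quasi-likelihood, Benjamini-Hochberg, threshold 0.05) on day and treatment. On simulated data, with a spread set in advance, this fit called 9 of 100 genes changed by treatment with a log2 difference of 1. With a log2 difference of 2 it called 62 of 100. With 1 pool per condition, p-values measure only the spread around this additive fit. DESeq2 1.42.0, upper quartile scaling, no filter, other limits and denominators, and leaving out each sublibrary or day were alternatives. Shares carry exact binomial and levels exact Poisson 95% intervals, which cover counting error only. Doublets were scored with Scrublet in scanpy 1.11.5 and kept.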

Additional observations from a re-analysis of the deposited data

How the results depend on the processing

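Precision was limited by 23 to 214 cells per pool and 1 pool per condition. Leaving out each sublibrary in turn moved the share from 0.316 to 0.358% in control, 0.326 to 0.401%, 0.467 to 0.599% and 1.19 to 1.31% in vehicle pools (in order of day), and 0.342 to 0.382%, 0.272 to 0.330% and 0.325 to 0.370% in entospletinib pools. The log2 ratio of entospletinib over vehicle then ranged from -0.10 to 0.07, -0.96 to -0.71 and -1.89 to -1.74, its mean over days from -0.94 to -0.82, and vehicle over control from -0.14 to 0.27, 0.56 to 0.83 and 1.76 to 1.94. Among cells with a *Ptprc* count the share was 0.480% in control, 1.45% in the day 14 vehicle pool, and 0.479% and 0.571% in the entospletinib pools of days 1 and 14. Among conventional DCs it was 3.91% in control, 14.1%, 7.64% and 10.7% in vehicle pools, and 7.93%, 3.17% and 7.80% in entospletinib pools, with log2 ratios of entospletinib over vehicle of -0.83 at day 1 and -0.46 at day 14, and of vehicle over control of 1.85 at day 1. Thinned to 1000 counts it was 0.238% in control, 0.368% and 0.912% in the vehicle pools of days 7 and 14, and 0.739% in the day 14 entospletinib pool (log2 ratio -0.30). Cells of at least 1000 counts gave 1.46% and 0.685% at day 14 (-1.09), a sum of at least 6 gave 0.991% and 0.255%, and a count of *Ccr7* or *Fscn1* gave 1.04% with vehicle. Stricter limits on mixed cells gave 0.214% in control, 0.249% and 0.846% in the vehicle pools of days 1 and 14, and 0.214% in the day 1 entospletinib pool. Without cells of the cDC2 criterion, an alternative chosen after seeing the data, the share was 0.327% and 0.799% with vehicle at days 7 and 14 (day 14 ratio -1.32). Calls between days 1 and 7 numbered 11, but 0 with upper quartile scaling, the ribosomal limit, a count of *Ccr7* or *Fscn1*, or without day 14 pools, 39 with no filter, 7 with a sum of at least 6 and 6 without cells of the cDC2 criterion. Calls between days 1 and 14 numbered 0, but 7 with DESeq2, 48 with no filter, 146 without day 7 pools, 14 with a sum of at least 6 and 22 without cells of the cDC2 criterion. Calls for entospletinib numbered 0, but 22 with no filter, 92 without day 1 pools, 23 without day 7 pools, 1 with a sum of at least 6 and 1 without cells of the cDC2 criterion. Of the 3 same-day pairs, 2 were lower (p = 0.5, sign-flip permutation test) among cells with a *Ptprc* count, with a sum of at least 3, or among cells of at least 1000 counts. The same held for thinned cells, without the highest doublet scores, and without sublibrary 5, 6, 7 or 8. The mean over days was -0.21 for thinned cells and -0.56 without cells of the cDC2 criterion. The cause of these shifts was not tested. No value changed sign past its threshold, but the day 1 ratio of entospletinib over vehicle changed sign within its interval. The 134 other recomputed shares, ratios and gene counts kept their size, call or sign. Same-day pools were paired in the test of the shares, and day was a term of every fit, while the labels give no replicate numbers by which pools could be paired further.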
